A study of Homo sapiens with 8 samples.

Results

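The regions described here were bound by the glucocorticoid receptor (GR) in dexamethasone-treated T47D A1-2 cells and held no peak of the progesterone receptor (PR) after progestin. They were chosen from the measured peak lists themselves. Peaks off chromosomes 1 to 22 and X, or overlapping a peak of the A1-2 input list, were left out. The GR list after dexamethasone (Dex) and the PR lists of A1-2 and MTVL cells after R5020 were then merged where they overlapped by at least 1 bp. This gave 51444 regions, of which 3719 (7.23%) held a GR Dex peak only. They made up 20.4% of the 18217 regions with a GR Dex peak (exact 95% interval 19.8 to 21.0), and the other 14498 held PR of A1-2 cells (1880), of MTVL cells (1090) or of both lines (11528). Below, the 3719 are called GR-only regions and the 14498 GR regions with PR.

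The study mapped GR and PR by ChIP-seq in T47D, a human breast cancer cell line. The A1-2 derivative of T47D has both receptors, and is known as a line into which a GR gene was introduced. MTVL WT cells, also T47D, served as the control line per the labels. GR was recovered with a mix of antibodies from A1-2 cells after 60 min of 10 nM Dex, after 60 min of 10 nM R5020, or without hormone. PR was recovered with a single antibody from A1-2 and MTVL cells after 60 min of 10 nM R5020 or without hormone, and input DNA of A1-2 cells made up the 8 libraries. All cells had been grown in hormone-stripped serum and starved of serum. GR was not precipitated from MTVL cells in the libraries used here, and PR was not precipitated after Dex, so the absence of PR at a GR-only region refers to another ligand. Each condition had 1 library of unknown read depth, so differences between conditions could not be checked against replicates, and p-values were not computed. All intervals are 95% intervals over regions and cover counting error only.

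GR and PR are steroid receptors of the same subfamily. On binding hormone they act as transcription factors in the nucleus, and their DNA-binding domains recognise the same palindromic hormone response element. Dex is a synthetic glucocorticoid and R5020 a synthetic progestin. Sites held by one of the receptors and not the other are therefore of interest in a cell that has both.

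Every GR-only region consisted of a single GR Dex peak, and 0 of them touched a PR peak that had been removed for overlapping input. The name "without any PR" held for the R5020 lists by construction. It did not hold for all PR lists, since 25 GR-only regions overlapped a PR peak of untreated A1-2 cells, and 3694 were free of peaks in all PR lists. Few regions lay near the 1 bp border of the rule. The narrowest misses were on chromosome 14 from 104092484 to 104093176, with a PR peak of A1-2 cells (score 634) 2 bp away, and on chromosome 10 (5553508 to 5554630), with one (score 1817) 3 bp away. On the other side of the border, the GR Dex peaks on chromosome 2 (159991742 to 159992163) and chromosome 3 (197249986 to 197251822) counted as shared through an overlap of 2 bp. In all, 29 GR-only regions had a gap of at most 50 bp to a PR peak, 11 GR Dex peaks overlapped PR by at most 50 bp, and the median overlap of GR Dex peaks with PR was 639 bp.

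GR-only regions were weak GR sites on the whole. The deposited score, taken as -10 times the log10 of a peak's p, ran from 100 to 2637 in them, with a median of 136 and quartiles of 113 and 180. GR regions with PR had a median of 223 (quartiles 144 and 412). Regions that shared GR with MTVL PR alone had a median of 138, close to that of GR-only regions, and those with A1-2 PR alone had one of 190. A score of at least 500 was reached by 59 GR-only regions (1.59%) and by 2843 regions with PR (19.6%). GR-only regions made up 41.9% (39.6 to 44.2) of the GR Dex regions in the lowest decile of the score and 1.21% (0.759 to 1.82) in the highest. These values come from the list that chose the regions and are a description. How many GR sites lack PR also moves with the unknown depth of the libraries, since a weak PR site can miss the peak threshold.

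**Figure D1:**
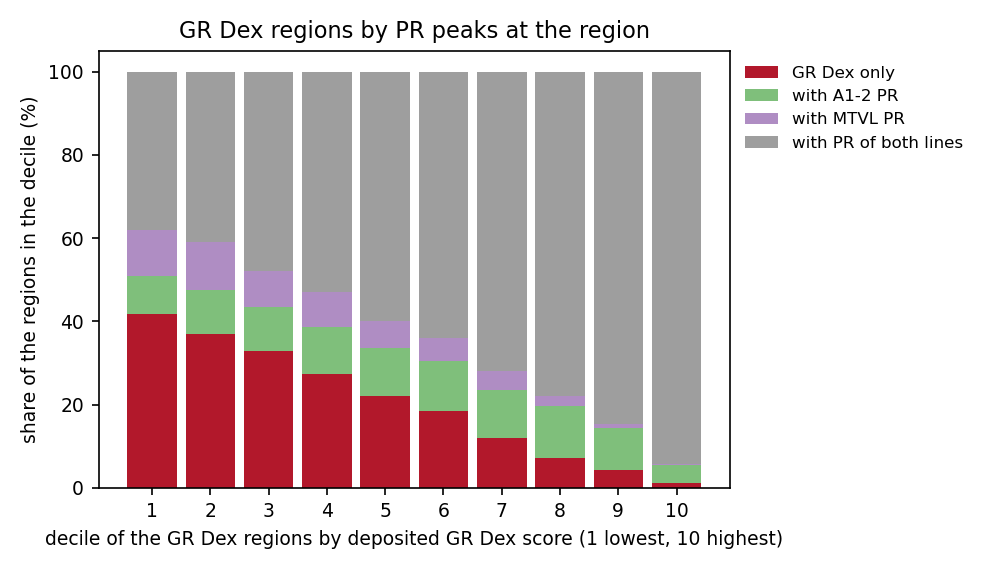
Share of the 18217 GR Dex regions in each decile of the deposited GR Dex score (horizontal axis, 1 lowest) that were GR-only or held PR of A1-2 cells, of MTVL cells or of both lines (stacked, in percent). The GR-only share, at the bottom of each bar, was 41.9% in decile 1 and 1.21% in decile 10.

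The strong exceptions stood out. The GR-only region of highest score (2637) lay on chromosome 6 from 167312015 to 167316199, was 4185 bp wide, and had its nearest PR peak 20221 bp away, a weak MTVL peak (score 108). Chromosome 8 followed with a score of 2229 (143884133 to 143886079), chromosome 12 with 2144 (131771995 to 131773229), chromosome 17 with 2000 (80975251 to 80976323) and chromosome 8 again with 1871 (142328386 to 142330163). These 5 regions lay between 0.172 and 3.90 Mb from the outermost peak of their chromosome, and each was over 1 kb wide. In order of score, their nearest input peaks were 47753, 74.1, 422, 32.0 and 680 kb away, against a median of 993218 bp over all GR-only regions. The sixth in rank, on chromosome 10 from 12289248 to 12289804 (score 1750) and named after its values were seen, was of another kind, since an A1-2 PR peak (score 173) began only 82 bp away. Among the 59 regions with a score of at least 500, 2 had a PR peak within 1 kb, and 0 overlapped a peak of GR after R5020 or of either receptor without hormone. Regions on chromosomes 16, 16 and 18 (scores 1501, 917 and 757) had gaps of 1057, 1080 and 1069 bp, just past that limit. Over all GR Dex regions, of any score, the shares were 18.0% for PR within 1 kb (10.9% over all GR-only regions) and 3.13% for GR after R5020. They were 1.24% and 1.37% for GR and PR of untreated A1-2 cells, and 0.818% for PR of untreated MTVL cells. With shares this low in these 4 lists, 0 of 59 is not read as a trait of the strong regions. Of the 59, 22 (37.3%) were at least 1 kb wide, against 28.5% of the 2843 regions with PR in that range.

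Position along the chromosome, which the rule did not use, set GR-only regions apart from the other GR sites. The ends of a chromosome were taken as the outermost peaks of any of the 8 lists, with the start left out for the acrocentric chromosomes 13, 14, 15, 21 and 22. Of the GR-only regions 816 (21.9%, 20.6 to 23.3) lay within 5 Mb of an end, against 1697 of the regions with PR (11.7%, 11.2 to 12.2) and 13.8% of all GR Dex regions. The difference was 10.2 percentage points (Newcombe interval 8.83 to 11.7). It was 10.6 points (9.11 to 12.1) within deciles of the GR Dex score and 9.65 points (8.24 to 11.1) within chromosomes. Each class with PR had a lower share near the ends than GR-only regions, with 15.7% (14.1 to 17.4) for A1-2 PR alone, 12.1% (10.2 to 14.2) for MTVL PR alone and 11.02% (10.5 to 11.6) for both. The class with A1-2 PR alone came nearer without a block of peaks on chromosome 16 (34 to 36 Mb). Its share was then 17.3% (15.5 to 19.2), against 22.4% (21.1 to 23.8) for GR-only regions. Regions with PR but no GR Dex peak lay there in 13.8% of cases where PR was found in A1-2 cells only, 5.45% where it was found in MTVL cells only, and 8.86% where it was found in both lines. This comparison was chosen after its values were seen.

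The gradient was steady over distance. GR-only regions were 35.9% (32.2 to 39.7) of the 649 GR Dex regions less than 1 Mb from an end, 35.5% from 1 to 2 Mb, 29.6% from 2 to 5 Mb, 22.9% from 5 to 10 Mb, and 16.5% (15.4 to 17.6) beyond 50 Mb. Median GR Dex scores of all regions varied little over these distances, from 186 nearest the end to 197 between 20 and 50 Mb. Strong GR-only regions were the most concentrated. Of those with a score of at least 500, 37 of 59 (62.7%, 49.1 to 74.96) lay within 5 Mb of an end, against 364 of 2843 regions with PR (12.8%, 11.6 to 14.1). Of those 2843, 2665 had PR of both lines (12.6% near an end) and 170 had A1-2 PR alone (14.1%). The class with MTVL PR alone had 8 regions in that range, too few for a comparison, and 50% of them lay near an end. In the range from 100 to 150 the shares were 19.8% (18.2 to 21.5) and 11.2% (10.2 to 12.2).

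**Figure D2:**
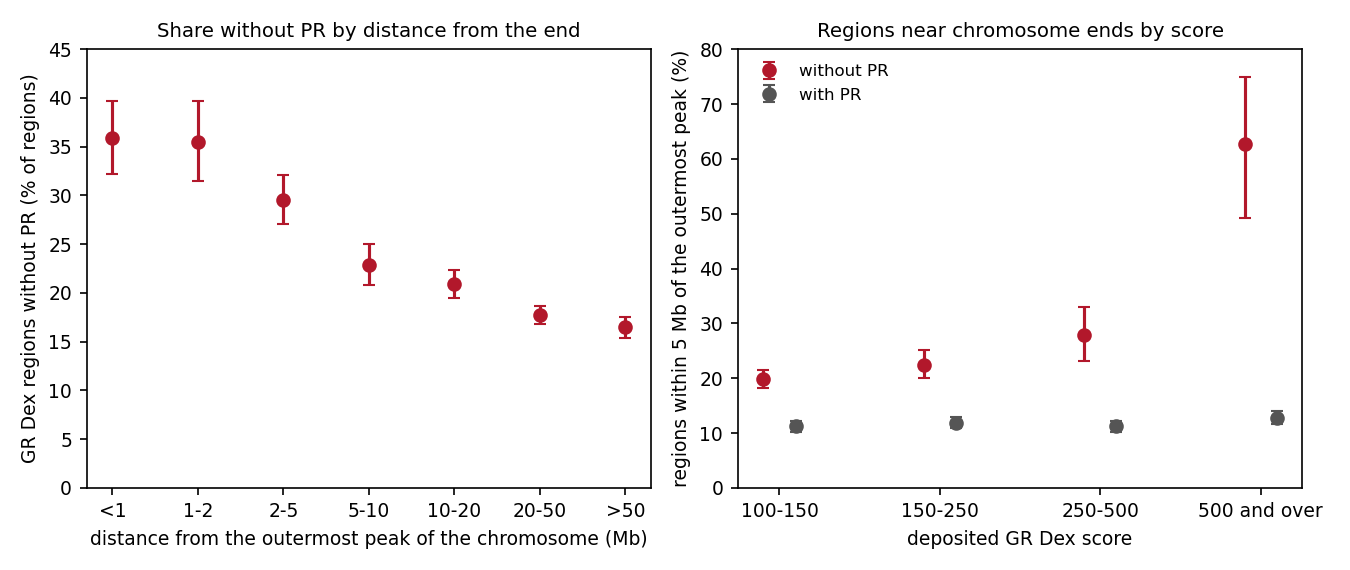
Left, share of GR Dex regions that were GR-only (percent) by distance in Mb from the outermost peak of the chromosome. Right, share of regions within 5 Mb of that peak (percent) by deposited GR Dex score, for GR-only regions (red) and GR regions with PR (grey). Bars are exact 95% intervals over regions; GR-only regions with a score of at least 500 reached 62.7%, against 12.8% of those with PR.

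The pattern was spread over many chromosomes. On 22 of 23 chromosomes the share within 5 Mb of an end was higher for GR-only regions than for regions with PR, with chromosome 15 as the exception (8.80% against 9.88%). Chromosome 20 is counted among the 22 but showed no difference, at 15.2% in both classes. Of 41 chromosome ends, 40 held a GR-only region, 34 had more of them among their GR Dex regions than the genome-wide 20.4%, and 19 held one with a score of at least 500. The far end of chromosome 14 held the most, 52 of 111 GR Dex regions (46.8%). In its last 2 Mb, named after its values were seen, 28 of 47 GR Dex regions were GR-only and 5 of these scored at least 500. The same 2 Mb held 47 PR peaks of A1-2 cells and 32 of MTVL cells after R5020, and 3 input peaks.

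Whole chromosomes also differed. The share of GR-only regions on a chromosome was divided by the share of GR regions with PR on it, for 23 chromosomes, with intervals not adjusted for that number. Chromosomes 20 (1.47, 1.27 to 1.72), 16 (1.38, 1.21 to 1.57) and 14 (1.35, 1.17 to 1.56) had the highest ratios. The lowest were those of chromosomes X (0.587, 0.434 to 0.793), 4 (0.690, 0.552 to 0.862) and 1 (0.838, 0.740 to 0.950). Intervals away from 1 were found for 4 chromosomes above and 4 below, the others being chromosomes 19 (1.34) and 5 (0.846). Chromosome 20 held 5.83% of GR-only regions, and also 5.69% of the regions with A1-2 PR alone, against 3.03% of those with MTVL PR alone and 3.76% of those with PR in both lines. Chromosome 14 showed the same order, with 6.59% of GR-only regions, 6.44% with A1-2 PR alone, 3.03% with MTVL PR alone and 4.80% with both. On chromosome 16 the order differed, since it held 16.3% of the regions with A1-2 PR alone, more than the 7.85% of GR-only regions, against 2.11% with MTVL PR alone and 4.31% with both. Of the regions with A1-2 PR alone, 175 lay in a block of close peaks between 34 and 36 Mb, without which the ratio of chromosome 16 was 1.31 (1.13 to 1.52). With the outer 5 Mb of the chromosomes left out, the intervals of chromosomes 1 (0.918, 0.808 to 1.04) and 19 (1.30, 0.972 to 1.75) held 1, while those of chromosomes 11 (1.17, 1.02 to 1.35) and 8 (0.825, 0.694 to 0.982) did not. The intervals of chromosomes 20, X and 4 held 1 when weak peaks were left out, as the ratios were 1.08 (0.752 to 1.56), 0.868 (0.485 to 1.55) and 0.654 (0.391 to 1.09) for GR Dex peaks with a score of at least 200, while chromosomes 14 and 16 kept 1.46 (1.11 to 1.93) and 1.31 (1.01 to 1.69). Copy number of the chromosomes in either line was not analysed here.

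**Figure D3:**
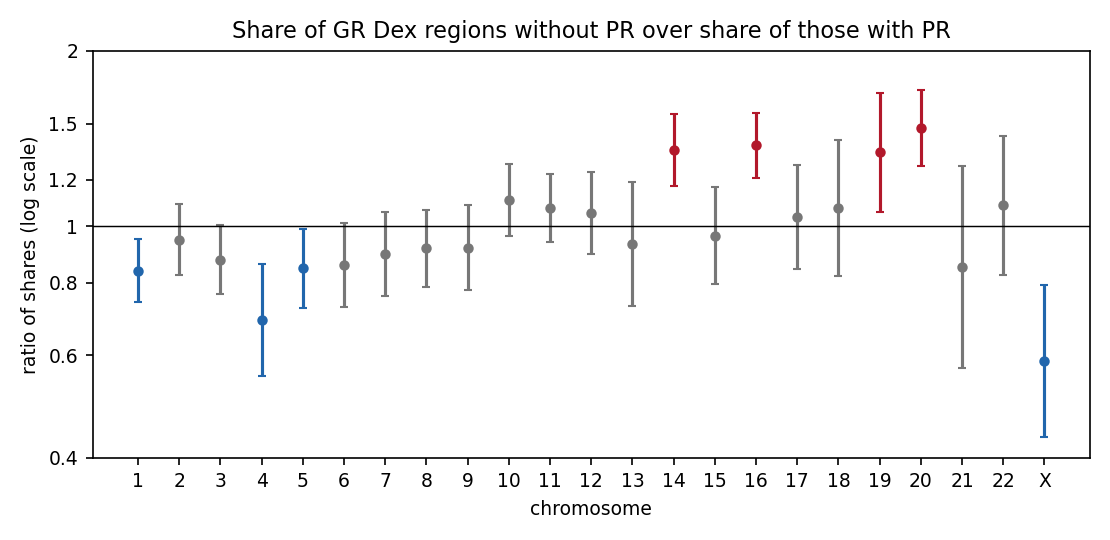
Ratio of the share of GR-only regions to the share of GR regions with PR on each of the 23 chromosomes (log scale, 1 marked by a line), with 95% intervals over regions. Red marks intervals above 1 and blue intervals below 1; chromosome 20 was highest at 1.47 and X lowest at 0.587.

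GR-only regions tended to have GR-only neighbours. A GR Dex neighbour within 50 kb was present for 71.1% of GR-only regions and 71.9% of regions with PR. That nearest neighbour was itself GR-only for 781 of 2646 GR-only regions (29.5%, 27.8 to 31.3) and for 1827 of 10423 regions with PR (17.5%, 16.8 to 18.3), against the 20.4% of all GR Dex regions that were GR-only. The share was 24.9% for regions with A1-2 PR alone, 19.9% for MTVL PR alone and 16.1% for both. Regions that were each other's nearest neighbour were counted from both sides, so these intervals treat linked regions as separate. The shares are a description. Most GR-only regions still stood alone, since 2843 had no other within 20 kb, and 282 (7.58%) lay in 75 stretches of 3 or more.

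The longest stretches came in separate kinds. On chromosome 16 between 34 and 36 Mb, where the A1-2 libraries called runs of close peaks, 76 of 254 GR Dex regions were GR-only (29.9%, 24.4 to 35.96) and 10 of the 75 stretches were found. The largest, from 34554149 to 34676151, held 15 GR-only regions among 26 GR regions with PR, and 13 of the 15 also overlapped a GR peak after R5020. The next in that block, from 34259587 to 34316524, from 34471232 to 34518061 and from 34824776 to 34865652, held 9, 8 and 7. Over the whole block, GR after R5020 was found at 50 of the 76 GR-only regions. It was also found at 118 of the block's regions with PR, which numbered 175 with A1-2 PR alone and 3 with both lines. The overlap was thus common in both classes there. On chromosome 18 from 77628635 to 77650796, close to the end, 7 GR-only regions stood within 22.2 kb with scores up to 757, around 1 GR region with PR, and 0 of them overlapped a peak of any other list. For the lists that the rule did not use, at most 3.13% of all GR Dex regions did. Stretches with fewer regions, named after their values were seen, lay farther along chromosome 16, from 85184840 to 85215994 (6 regions, up to a score of 512), and on chromosome 10, from 1588285 to 1617072 (5 regions). Others of 5 regions lay on chromosome 12 (238059 to 256843) and chromosome 16 (163976 to 193888). Each of these contained 0 PR peaks of either line after R5020. Just before the stretch of 6, a GR Dex peak (85182484 to 85183136) counted as shared with PR through an overlap of 9 bp.

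Lists that the rule did not use gave a second view of these sites. The GR antibodies recovered 104 GR-only regions (2.80%, 2.29 to 3.38) after R5020, against 466 regions with PR (3.21%, 2.93 to 3.51) and 3.13% of all GR Dex regions. The difference of -0.42 points had an interval from -0.99 to 0.22. Its sign depended on the setting. It was 1.01 points (0.43 to 1.60) within deciles of the GR Dex score, and -0.95 points (-1.38 to -0.44) without the chromosome 16 block, where the shares were 1.48% and 2.43%. With both changes together it was 0.31 points (-0.13 to 0.75). It was 1.02 points (0.10 to 2.15) when every list was cut at a score of 200, and -1.67 points (-2.09 to -1.18) with peaks within 1 kb merged. Of the 104 regions, 50 lay in that block, as did 118 of the 466 regions with PR. Regions with A1-2 PR alone were the ones with most GR after R5020, at 14.1% (12.6 to 15.8), or 8.86% (7.55 to 10.3) without the block, while without the block GR-only regions had 1.48% (1.12 to 1.93) and regions with PR of both lines 1.71% (1.48 to 1.96), and 0 of 1090 regions with MTVL PR alone had any.

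Peaks of untreated cells were rare at GR-only regions and at most regions with PR. GR of untreated A1-2 cells was found at 21 of them (0.565%, 0.350 to 0.862), against 204 regions with PR (1.41%, 1.22 to 1.61) and 1.24% of all GR Dex regions. PR of untreated A1-2 cells was found at 25 (0.672%, 0.435 to 0.991), against 225 with PR (1.55%, 1.36 to 1.77) and 1.37% of all. The differences were -0.84 points (-1.13 to -0.50) and -0.88 points (-1.18 to -0.51), but within score deciles they were -0.24 (-0.54 to 0.05) and -0.28 (-0.60 to 0.04), with intervals that held 0. Without the chromosome 16 block the decile value for untreated PR was -0.34 (-0.61 to -0.07), away from 0. Regions with A1-2 PR alone carried most of the peaks at regions with PR, with 163 of the 204 for GR (8.67% of that class) and 165 of the 225 for PR (8.78%). Regions with PR of both lines had 0.321% (0.226 to 0.442) for GR and 0.512% (0.390 to 0.660) for PR, both lower than at GR-only regions but with overlapping intervals. Those with MTVL PR alone had 0.367% (0.100 to 0.937) and 0.092%. PR of untreated MTVL cells was found at 0 of 3719 GR-only regions, for which the exact interval reaches 0.099%, against 149 regions with PR (1.03%, 0.870 to 1.21) and 0.818% of all. All 149 held PR of both lines after R5020, while regions with A1-2 PR alone (0 of 1880) and MTVL PR alone (0 of 1090) had none either. The difference between GR-only regions and all regions with PR was -1.03 points (-1.21 to -0.84), and -0.50 (-0.64 to -0.36) within deciles. It set GR-only regions apart only from regions with PR of both lines. The rule left out regions with an MTVL PR peak after R5020, so this 0 is not independent of it and is a description. The same holds for PR of untreated A1-2 cells, since regions with an A1-2 PR peak after R5020 were left out too.

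**Figure D4:**
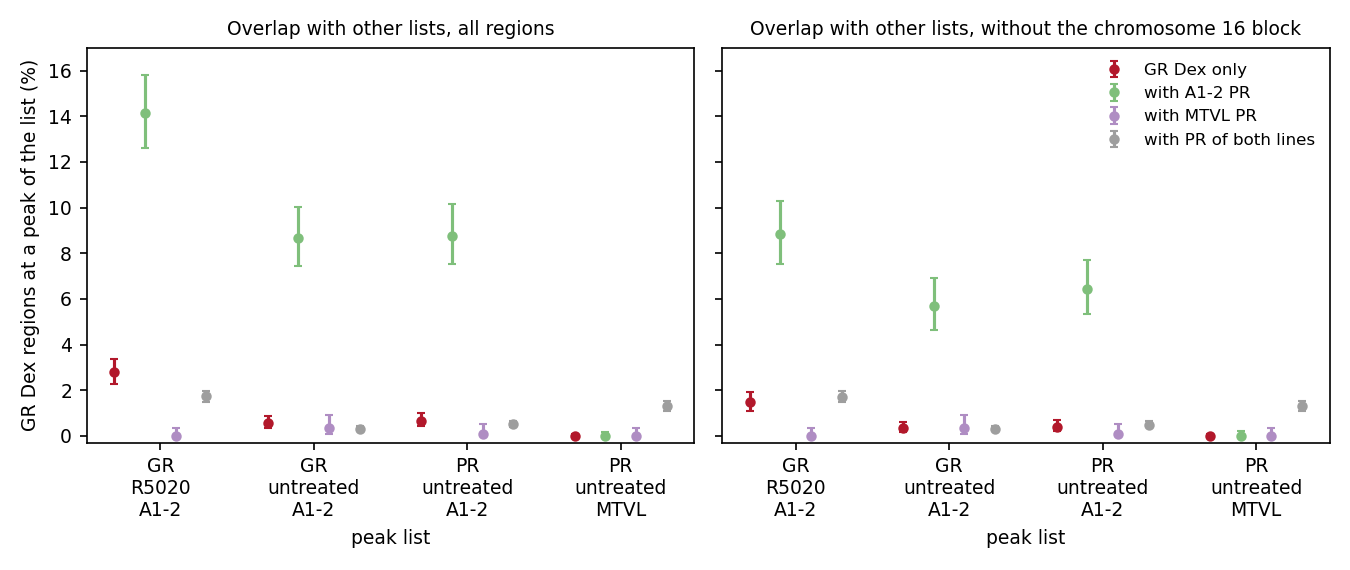
Share of GR Dex regions (percent, exact 95% intervals) that overlapped a peak of 4 lists not used to choose them, for GR-only regions and for regions with A1-2 PR, MTVL PR or PR of both lines, with all regions (left) and without the chromosome 16 block (right). GR-only regions stayed at or below 2.80%, and regions with A1-2 PR alone reached 14.1% for GR after R5020.

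A handful of GR-only regions carried peaks in several of these lists. On chromosome 2 from 174261451 to 174262787 (GR Dex score 429) the region had a GR peak after R5020 (score 601), a GR peak without hormone (115) and a PR peak without hormone (105), while the nearest PR peak after R5020 was a weak MTVL peak 1078 bp away. On chromosome 6 from 104165636 to 104166241 (GR Dex score 305) the GR peak after R5020 had a score of 3100, and those without hormone had 223 for GR and 272 for PR. Only 3 GR-only regions had peaks in all 3 of these lists, the remaining one lying in the chromosome 16 block from 34988717 to 34990009. Outside that block, a strong GR signal after R5020 also marked chromosome 15 from 39846845 to 39848402 (score 1306, against 373 after Dex), with no peak in untreated cells. Scores of different lists are set side by side here and are not on a common scale.

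Most GR-only regions had a PR peak within 50 kb, though other positions in the genome were not measured. Their distances were closer to those of GR regions with MTVL PR alone than to those of the other classes with PR. The median gap of a GR-only region to the nearest PR peak of either line after R5020 was 11964 bp (11193 to 12701), with quartiles of 3284 and 30700 bp. For GR regions with PR, measured to the nearest PR peak that they did not overlap, it was 5846 bp (5613 to 6048). Within 1 kb there was a PR peak for 407 GR-only regions (10.9%, 9.96 to 11.99), a further peak for 2876 regions with PR (19.8%, 19.2 to 20.5), and 18.0% over all GR Dex regions. Regions with MTVL PR alone, whose scores were most like those of GR-only regions, had a median gap of 10191 bp and a share of 11.2% (9.38 to 13.2) within 1 kb. The shorter distances belonged to regions with A1-2 PR alone (5312 bp, 23.8%) and with PR of both lines (5618 bp, 2306 of 11528 regions). Of the 407, 339 had an A1-2 PR peak that close, 258 an MTVL one and 190 both. By 50 kb the shares were 84.8% and 90.2%. GR-only regions with a score of at least 500 had a median gap of 15975 bp (8183 to 30301), an interval that held the 11964 bp of all GR-only regions. For regions with PR in the same score range it was 4193 bp (3846 to 4552). The PR lists chose the regions, so these distances are a description.

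**Figure D5:**
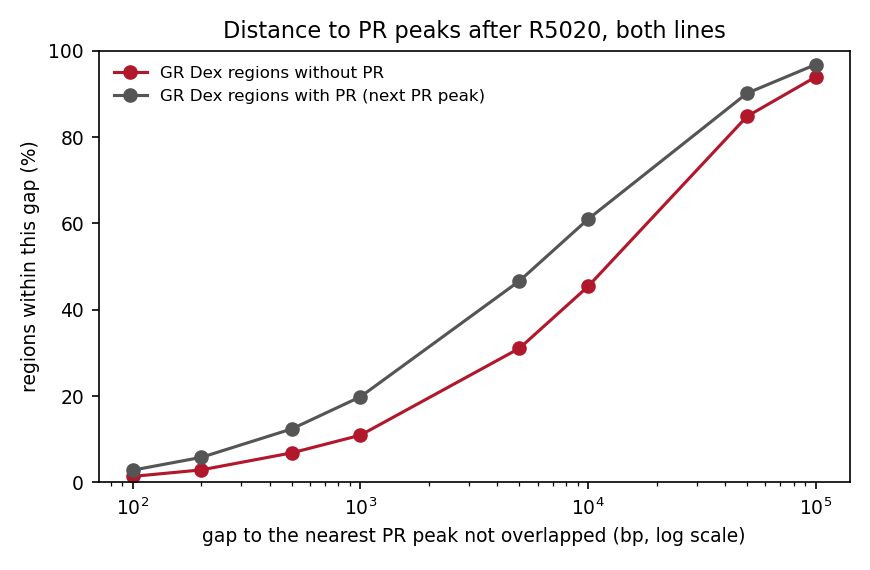
Cumulative share of GR-only regions (red) and of GR regions with PR (grey) by the gap in bp to the nearest PR peak after R5020 that they did not overlap (log scale). At 1 kb the shares were 10.9% and 19.8%, and at 50 kb 84.8% and 90.2%.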

How the data were processed

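ChIP-seq peak lists of 8 libraries, 1 per condition, were analysed. Per the submitters' processing notes, the tools were Bowtie 1.1.1, MACS 1.4.2 and bedtools, with hg19. Settings, control library and depth: not given in the sources used here. Positions are in hg19, counted from 1. The deposited score is the authors' value for each peak, taken as MACS's -10 times log10 of p because its lowest value is 100 and the deposited names carry a threshold of 1e-10. It was used only within a list. Each list held peaks of a single library, with no pooling.

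Regions were classed by merged lists, with the highest GR Dex score of each. Shares have exact (Clopper-Pearson) intervals, differences Newcombe intervals, medians order-statistic intervals. Regions are not replicates, so no test was run. Regions named were the 5 GR-only regions of highest score and some of the highest-scoring ones at lists that the rule did not use. Also named were the narrowest misses, the longest stretches of regions with gaps of at most 20 kb, and 3 chromosomes at either extreme. Members and comparisons were chosen with earlier results of these data known. Planned motif shares and distances to genes need an hg19 genome and were not run, so 0 genes were placed. The merging and interval steps were tested on simulated data. Python 3.11.15, numpy 2.4.6, pandas 2.3.3, scipy 1.17.1 and matplotlib 3.10.9 were used.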

Additional observations from a re-analysis of the deposited data

How the results depend on the processing

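Of 91 alternatives over 16 results, 64 stayed within the 95% interval of the reported value (within 1.5 times for counts), 27 moved further and 0 reversed a called direction. Asking every list for a score of 200 or more left 1444 GR-only regions, of which 703 were among the original ones, and they were 16.5% of GR Dex regions. With that score asked of GR Dex alone there were 703 (8.05%), and merging peaks within 1 kb gave 19.0%. In the order every list at 200, GR Dex alone at 200, deciles of the score, the difference at untreated MTVL PR peaks was -0.53, -1.51 and -0.50 points. Every list at 200 and deciles moved the difference at untreated GR peaks to -0.49 and -0.24 points and that at untreated A1-2 PR peaks to -0.45 and -0.28. At GR peaks after R5020 the difference, whose interval held 0, was 1.02 points with every list at 200, 1.01 in deciles, 0.31 in deciles without the chromosome 16 block and -1.67 with peaks within 1 kb merged. The median gap to PR was 20108 bp with every list at 200 and 12709 bp with GR Dex alone at 200, where 24.3% of nearest neighbours were GR-only. The excess near chromosome ends was 17.5 points with GR Dex alone at 200, and 3.40 and 6.14 points for distances of 1 and 2 Mb; the cause of these shifts was not tested. It ran from 9.65 to 11.5 points in the other settings. That comparison, and leaving out the chromosome 16 block, were added after seeing the data. Chromosomes, gaps and neighbours were not recomputed for other overlap rules. No paired analysis was possible because each condition had 1 library. Leaving out a library was not possible for the same reason. Unknown depth limits every statement that a peak is missing.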
